A study of Mus musculus with 4 samples.

Results

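The 9 genes described here belong to T cell residency, adhesion and egress, and were read in cells isolated from tumours: the retention receptor gene Cd69, the egress genes S1pr1 and Klf2, the integrin alpha chain genes Itgae, Itga1, Itga4 and Itgal, and the beta chain genes Itgb1 and Itgb7. They were taken by symbol from the tables, and all 9 were found among 21959 listed genes. The series measured RNA of CD3+ T cells and of dendritic cells (DCs) from MC38 tumours, a mouse colon carcinoma grafted into mice. Treated mice received X-Ray+O-IMDQ, and the other mice received PBS. O-IMDQ was named by the submitters as a prodrug that radiotherapy activates. No group had X-Ray or O-IMDQ alone, so their effects cannot be told apart. All groups share the MC38 tumour and the time point of 72 h past a second treatment. Strain, sex and age of the mice, how the cells were purified and how many animals a library holds are not given in the labels. The groups used are treated T cells, PBS T cells, treated DCs and PBS DCs.

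There were 4 libraries in 4 groups, with 1 library each. Every comparison therefore sets 1 library against 1 other, has no replicate check and carries no p-value. Total counts were 18463944 in treated T cells and 18649824 in PBS T cells, and 14056428 in treated DCs and 23797357 in PBS DCs. Levels are in FPKM, which is scaled to gene length and to library total. Ratios were taken after TMM scaling and have exact binomial 95% intervals, conditional on the summed count. These cover counting error only, as PCR copies are not separate molecules. A gene counted as measured with at least 20 counts in either library. It was called when the ratio reached 2-fold and the interval excluded 0 on the log2 scale.

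As background, lymphocytes leave tissues along a gradient of sphingosine-1-phosphate (S1P) that is read by the receptor S1PR1. The transcription factor KLF2 drives the S1pr1 gene, while the CD69 protein binds S1PR1 and removes it from the cell surface, so that high CD69 with low KLF2 and S1PR1 is known from T cells that stay in tissue. Integrins are pairs of an alpha and a beta chain that hold cells to other cells or to matrix. The alphaE chain of Itgae, known as CD103, pairs with beta7 and binds E-cadherin, and the alpha1 chain of Itga1, known as CD49a, pairs with beta1 and binds collagen. The alpha4 chain pairs with beta1 or beta7 and binds VCAM-1, fibronectin or MAdCAM-1, and the alphaL chain pairs with beta2 as LFA-1 and binds ICAMs. In DCs, CD103 is known as a marker of a subset of conventional DCs.

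The libraries were set against markers of the cells they are labelled as. All 7 T cell markers were detected in the T cell libraries, with sums of 11026 CPM (counts scaled to library total) in treated and 10350 CPM in PBS T cells. Cd8a had 708 FPKM in treated and 686 FPKM in PBS T cells, while Cd4 had 252 counts in treated and 17 counts in PBS T cells. Cd8a stood far above Cd4 in both. Of 3 regulatory T cell markers, Foxp3, the factor of these cells, had 0 counts in treated and 99 counts in PBS T cells. Ikzf2 was lower as well, with 55 counts in treated and 354 counts in PBS T cells. Il2ra had 5176 counts in treated and 3758 counts in PBS T cells and was neither. In the DC libraries the T cell markers summed to 77.6 CPM in treated and 92.1 CPM in PBS DCs, and Cd3e had 0 counts in both. Of 7 conventional DC markers, Zbtb46 and Flt3 were low there. Zbtb46 had 0.48 FPKM in treated and 0.04 FPKM in PBS DCs, and Flt3 had 0.79 FPKM in treated and 0.11 FPKM in PBS DCs. Xcr1 had 2.43 FPKM in treated and 2.01 FPKM in PBS DCs, and Clec9a had 20.6 FPKM in treated and 1.97 FPKM in PBS DCs. Cd209a had 14.8 FPKM in treated and 251 FPKM in PBS DCs, and Batf3 had 0 counts in treated and 12.6 FPKM in PBS DCs. The class II gene H2-Ab1, of the same list, had 2294 FPKM in treated and 19156 FPKM in PBS DCs. The 7 macrophage markers summed to 1372 CPM in treated and 5797 CPM in PBS DCs. Of these, 4 were called lower (C1qa, C1qb, C1qc and Apoe) and 3 neither. The latter were Adgre1 with 66.1 CPM in treated and 57.0 CPM in PBS DCs, Csf1r with 246 and 216, and Mrc1 with 108 and 107. The part of these differences in the values that follow was not tested.

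The members were ordered by their FPKM in each library. In treated T cells Cd69 led with 153.5 FPKM, followed by Itgal at 98.1, Itgb7 at 79.0, S1pr1 at 46.8, Itgb1 at 36.6 and Klf2 at 25.3 FPKM. In PBS T cells Itgal led with 87.3 FPKM, followed by Itgb7 at 65.6, Cd69 at 51.5, Itgb1 at 45.3, S1pr1 at 35.2 and Klf2 at 35.1 FPKM. The 3 other alpha chains were low in both T cell libraries: Itga4, Itgae and Itga1 lay between 0.14 and 1.49 FPKM. Neighbours whose exact Poisson 95% intervals overlapped were Itga4 and Itgae in treated T cells, and S1pr1 and Klf2 as well as Itga1 and Itgae in PBS T cells.

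**Figure D1:**
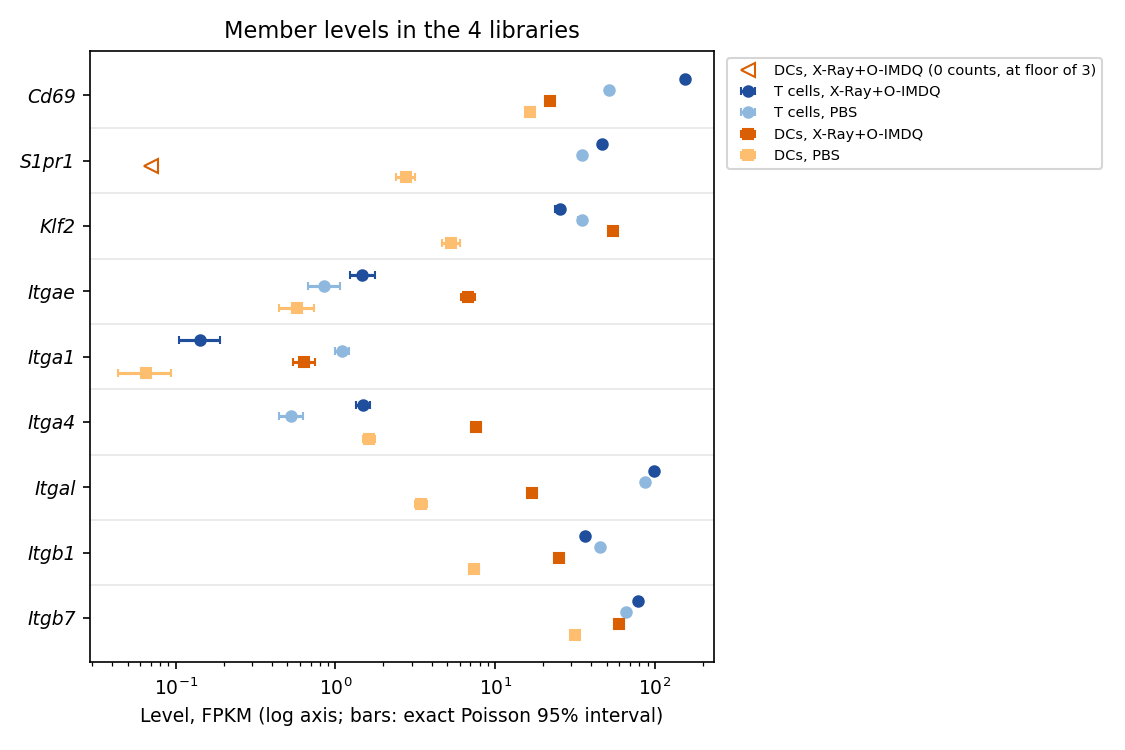
Level of each member in the 4 libraries in FPKM on a log axis, with bars for the exact Poisson 95% interval of counting error. Cd69 was highest in treated T cells at 153.5 FPKM, and S1pr1 had 0 counts in treated DCs, drawn as an open triangle at the floor of 3 counts.

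In the DC libraries Itgb7 led, with 59.6 FPKM in treated and 31.8 FPKM in PBS DCs. In treated DCs Klf2 followed at 54.7 FPKM, with an interval that overlapped that of Itgb7, and then Itgb1 at 25.2, Cd69 at 21.9, Itgal at 16.9, Itga4 at 7.62, Itgae at 6.77 and Itga1 at 0.64 FPKM, with S1pr1 at 0 counts. The intervals of Itga4 and Itgae overlapped as well. In PBS DCs Cd69 was second at 16.6 FPKM, before Itgb1 at 7.40, Klf2 at 5.28, Itgal at 3.45, S1pr1 at 2.76, Itga4 at 1.62, Itgae at 0.58 and Itga1 at 0.07 FPKM. Here the intervals of Itgal and S1pr1 overlapped. Klf2 stood at place 2 in treated DCs and 4 in PBS DCs, and S1pr1 at place 9 in treated DCs and 6 in PBS DCs.

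The comparison within T cells asks what the treatment did to T cells of the tumour. Of the 9 members, 2 were called higher (Cd69 and Itga4), 1 was called lower (Itga1) and 6 were neither. Over all 11058 genes measured, 18.3% were called higher and 25.4% lower. The median log2 ratio of the members was 0.24, beside -0.07 over all genes. In bulk RNA, a change in the number of cells of a type and a change in RNA per cell cannot be told apart.

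Cd69 (ENSMUSG00000030156, chromosome 6, 129244288 to 129252399 in GRCm39, the build of all gene positions given here) had 18450 counts in treated T cells and 6249 counts in PBS T cells. This was a 2.93-fold higher value, with an interval from 2.84-fold to 3.01-fold, and made Cd69 the member with the most counts in treated T cells. The gene of the receptor that CD69 binds, S1pr1 (ENSMUSG00000045092, chromosome 3, 115504082 to 115508721) had 2634 counts in treated and 2002 counts in PBS T cells. Its log2 ratio was 0.38 (95% interval 0.30 to 0.47). Klf2 (ENSMUSG00000055148, chromosome 8, 73072877 to 73075500) had 863 counts in treated and 1210 counts in PBS T cells. Its log2 ratio was -0.50 (95% interval -0.63 to -0.37). Neither S1pr1 nor Klf2 reached 2-fold, and their ratios had opposite signs.

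Among the integrin chains of T cells, the largest ratio was that of Itga1 (ENSMUSG00000042284, chromosome 13, 115089632 to 115238500), with 49 counts in treated and 383 counts in PBS T cells. It was 7.89-fold lower (95% interval 5.85-fold to 10.8-fold). Of 5 NK cell markers, Klrb1c was lower as well, with 0 counts in treated and 140 counts in PBS T cells, Eomes was higher, with 449 counts in treated and 201 counts in PBS T cells, and Klre1 was neither. The list summed to 385 CPM in treated and 456 CPM in PBS T cells, with Ncr1 and Klra8 at 0 counts in both. Of 5 fibroblast and endothelial markers, 3 were measured: Col1a2 was lower, with 3 counts in treated and 414 counts in PBS T cells, and Dcn and Pecam1 were neither. That list summed to 111 CPM in treated and 102 CPM in PBS T cells, with Pdgfra and Cdh5 at 0 counts in both. The part of such cells in the Itga1 value was not tested. Itga4 (ENSMUSG00000027009, chromosome 2, 79085770 to 79163467) had 384 counts in treated and 138 counts in PBS T cells and was 2.76-fold higher (95% interval 2.26-fold to 3.37-fold). Cerkl overlaps Itga4 on the opposite strand and had 222 counts in treated and 14 counts in PBS T cells. The overlap was read from whole gene spans, and exons were not compared. The sources used here do not state whether the counting used strand. Whether reads of Cerkl enter the Itga4 count is therefore not known, and the Itga4 value in T cells is uncertain.

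Itgae (ENSMUSG00000005947, chromosome 11, 72981409 to 73038272) had 125 counts in treated and 73 counts in PBS T cells, a 1.70-fold ratio with an interval from 1.26-fold to 2.30-fold, and was not called. Haspin overlaps it on the opposite strand with 159 counts in treated and 79 counts in PBS T cells, so the same uncertainty holds for Itgae. Itgal (ENSMUSG00000030830, chromosome 7, 126895432 to 126934310) had 11904 counts in treated and 10692 counts in PBS T cells, at a log2 ratio of 0.14. The beta chains Itgb7 (ENSMUSG00000001281, chromosome 15, 102124430 to 102140379) and Itgb1 (ENSMUSG00000025809, chromosome 8, 129412135 to 129459681) had log2 ratios of 0.24 and -0.34. Itgal, Itgb7 and Itgb1, the 3 abundant chains among the members, thus differed by at most 1.26-fold, and the called chains were low ones.

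Per 1000 counts of the CD3 chain genes Cd3d, Cd3e and Cd3g, treated T cells had 169 counts of Cd69 and PBS T cells 47.7. By the same measure Itga1 had 0.45 in treated and 2.92 in PBS T cells, and Itga4 had 3.52 in treated and 1.05 in PBS T cells. These 3 genes were called in the same direction on this scale, on which Itgae was also past 2-fold at a log2 ratio of 1.04, with 1.15 per 1000 in treated and 0.56 in PBS T cells. Over all genes, 52.6% of the called ones were higher on this scale and 41.9% with TMM.

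**Figure D2:**
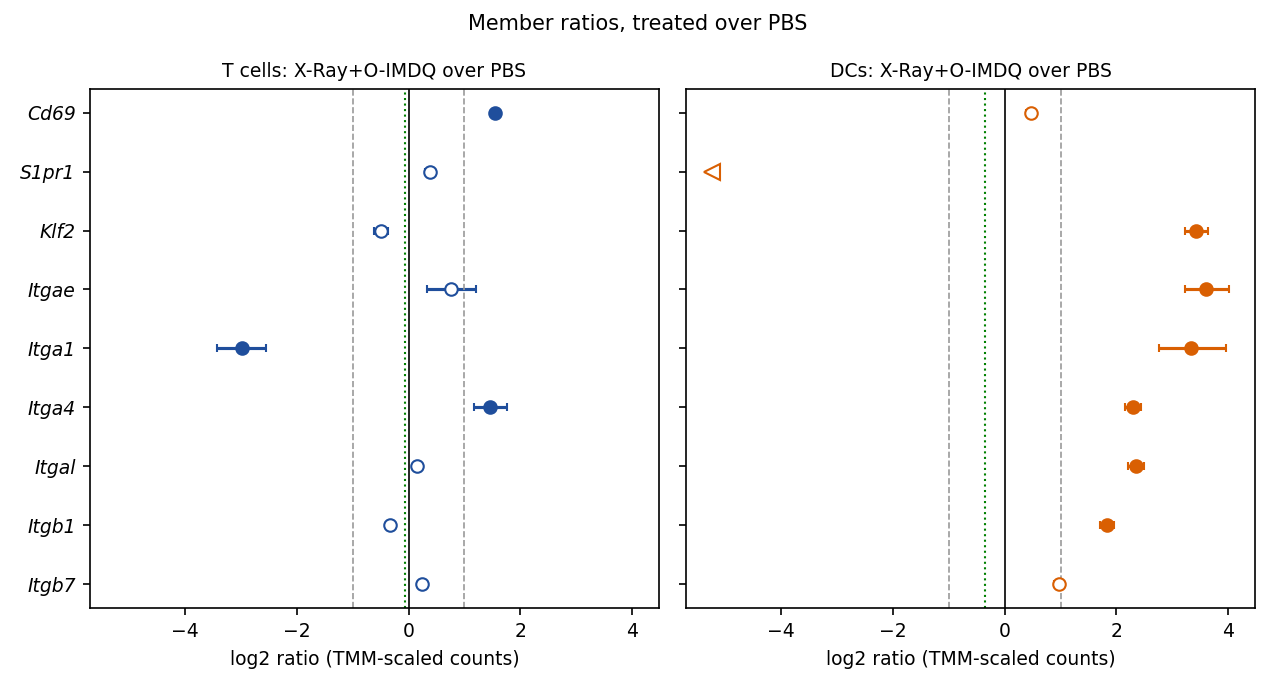
Log2 ratio of treated over PBS for each member, in T cells on the left and in DCs on the right, with exact conditional binomial 95% intervals. Filled points are called, dashed lines mark 2-fold, the dotted line is the median of all genes, and the open triangle is S1pr1 at its bound. Called members were 3 of 9 in T cells and 7 of 9 in DCs. Over all genes measured, 18.3% were called higher and 25.4% lower in T cells, and 30.2% higher and 41.8% lower in DCs.

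The comparison within DCs asks what the treatment did to DCs of the tumour. Of the 9 members, 6 were called higher (Klf2, Itgae, Itga1, Itga4, Itgal and Itgb1), 1 was called lower (S1pr1) and 2 were neither (Cd69 and Itgb7). Over all 10316 genes measured, 30.2% were called higher and 41.8% lower. The median log2 ratio of the members was 2.29, beside -0.36 over all genes. With at least 20 counts asked of both libraries, the median over all genes was 0.20. By that count minimum, 32.9% of all genes were called higher and 26.2% lower.

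The alphaE gene Itgae had 436 counts in treated and 63 counts in PBS DCs, a ratio of 12.2-fold (95% interval 9.36-fold to 16.2-fold), and Haspin had 0 counts in both. Clec9a, a receptor of CD103-bearing conventional DCs, moved with it at 20.6 FPKM in treated and 1.97 FPKM in PBS DCs. Of other markers of such cells, Batf3 had 0 counts in treated and 479 counts in PBS DCs, and Xcr1 had 152 counts in treated and 213 counts in PBS DCs. Over the whole list of 7 conventional DC markers, 3 were called higher, 3 lower and 1 neither, and their part in the Itgae value was not tested.

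The other alpha chains were also called higher. Itga1 had 167 counts in treated and 29 counts in PBS DCs, a 10.2-fold ratio with an interval from 6.82-fold to 15.6-fold. Itga4 had 1497 counts in treated and 539 counts in PBS DCs, a ratio of 4.90-fold (95% interval 4.44-fold to 5.42-fold), while Cerkl had 0 counts in treated and 4 counts in PBS DCs. Itgal, whose product helps leukocytes bind ICAMs, had 1565 counts in treated and 539 counts in PBS DCs, a ratio of 5.12-fold (95% interval 4.64-fold to 5.66-fold). Of 7 T cell markers, 5 were measured in DCs, with 2 called higher and 3 lower. Cd5 had 278 counts in treated and 1 count in PBS DCs, a log2 ratio of 8.94 (95% interval 6.45 to 14.25), and Cd3d had 812 counts in treated and 434 counts in PBS DCs. Cd3g had 1 count in treated and 576 counts in PBS DCs, Lck and Cd2 had 0 counts in treated and 607 and 574 counts in PBS DCs, and Cd3e and Cd247 had 0 counts in both. Of 5 NK cell markers, 2 were measured and both were called higher: Klre1 had 637 counts in treated and 137 counts in PBS DCs, and Eomes had 135 counts in treated and 0 counts in PBS DCs. The list summed to 55.0 CPM in treated and 5.76 CPM in PBS DCs, with Ncr1 and Klra8 at 0 counts in both. The part of T and NK cell RNA in these integrin values was not tested.

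Of the beta chains, Itgb1 had 1448 counts in treated and 719 counts in PBS DCs, a ratio of 3.55-fold (95% interval 3.25-fold to 3.89-fold). Itgb7 had 2321 counts in treated and 2093 counts in PBS DCs, a ratio of 1.96-fold (95% interval 1.84-fold to 2.08-fold), just under the threshold. It passed 2-fold under upper-quartile scaling, at a log2 ratio of 1.02. Cd69 had 2008 counts in treated and 2564 counts in PBS DCs, a log2 ratio of 0.47 after scaling to depth.

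Klf2 had 1419 counts in treated and 232 counts in PBS DCs and was 10.8-fold higher (95% interval 9.39-fold to 12.5-fold). S1pr1, a gene that KLF2 drives in T cells, had 0 counts in treated and 200 counts in PBS DCs. With 0 set to the floor of 3 counts, S1pr1 was 37.8-fold lower, and the nearer limit of its interval was 30.4-fold. The treated DC library had many such zeros: of 3041 genes with 100 to 400 counts in PBS DCs, 711 (23.4%) had 0 counts in treated DCs. In the other direction this was 193 of 2881 genes (6.70%). With at least 20 counts asked of both libraries, S1pr1 was not measured and no member was called lower in DCs.

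Ratios of DCs also moved with gene length. Among genes over 10000 bases long, which hold Itga1 and Itga4, the median log2 ratio was 0.63, and among those of 2000 to 3000 bases, which hold Itgb7, it was -1.18. It was -1.04 among those of 1000 to 2000 bases, which hold Klf2, and 0.79 among those of up to 1000 bases. The median thus did not rise steadily with length. After the median of genes of like length was taken away, Itga1 was at 2.72, Itga4 at 1.66, Itgal at 2.36, Itgae at 3.89, Itgb1 at 2.11, Itgb7 at 2.15 and Klf2 at 4.48 on the log2 scale. These 7 genes were called higher on that scale, which was chosen after seeing the data.

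Promoter sequences are shown for 3 of the members called higher in DCs, which differed in T cells: there Itga1 was called lower, Itga4 higher and Klf2 neither. They are the 250 bases before the RefSeq start site in GRCm38.p6, on the strand of the gene. The windows are chr8:72318812-72319061 on the plus strand for Klf2, chr13:115101965-115102214 on the minus strand for Itga1 and chr2:79255176-79255425 on the plus strand for Itga4. Capitals mark CACCC or its reverse complement GGGTG, the box that KLF factors are known to bind.
Klf2: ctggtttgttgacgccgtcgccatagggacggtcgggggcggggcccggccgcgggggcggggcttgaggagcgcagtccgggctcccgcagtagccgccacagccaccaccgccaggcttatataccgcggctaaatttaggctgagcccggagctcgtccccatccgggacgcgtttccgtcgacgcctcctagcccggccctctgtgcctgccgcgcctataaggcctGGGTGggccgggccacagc
Itga1: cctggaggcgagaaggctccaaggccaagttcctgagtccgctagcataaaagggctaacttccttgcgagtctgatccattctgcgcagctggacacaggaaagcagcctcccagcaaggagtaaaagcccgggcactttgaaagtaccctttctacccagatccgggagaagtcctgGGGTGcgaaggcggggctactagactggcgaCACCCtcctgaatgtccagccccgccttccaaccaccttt
Itga4: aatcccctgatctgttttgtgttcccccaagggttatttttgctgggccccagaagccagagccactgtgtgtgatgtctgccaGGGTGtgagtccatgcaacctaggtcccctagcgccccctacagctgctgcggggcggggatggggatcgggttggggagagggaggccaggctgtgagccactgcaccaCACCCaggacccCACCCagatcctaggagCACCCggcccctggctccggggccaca
Counted on both strands, the box stands 1 time before Klf2, 2 times before Itga1 and 4 times before Itga4. It stands 4 times before Itgb7 and 2 times before Itgb1, and these 5 of 9 members had an entry in the table. Of 32851 promoter windows of this length, 52% hold the box at least 1 time. A match describes these letters only.

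The alpha and beta chains that pair on the cell surface were set side by side per length. In T cells the LFA-1 chains were closest in level: Itgal had 44.9% of the FPKM of Itgb2 in treated and 54.1% in PBS T cells. In DCs this share was 18.4% in treated and 1.80% in PBS DCs, where Itgb2, the beta2 chain shared by leukocyte integrins, had 92.1 FPKM in treated and 191 FPKM in PBS DCs. Itgb2 itself had a log2 ratio of -0.99 in DCs and was not called.

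The alphaE chain was far below its partner. Itgae had 1.87% of the FPKM of Itgb7 in treated and 1.30% in PBS T cells, against 11.4% in treated and 1.82% in PBS DCs. Itga4 had 4.07% of the FPKM of Itgb1 in treated and 1.17% in PBS T cells, against 30.2% in treated and 21.9% in PBS DCs. Itga1 had 0.39% of the FPKM of Itgb1 in treated and 2.44% in PBS T cells, against 2.53% in treated and 0.89% in PBS DCs. Among 18 alpha chain genes, Itgal held 76.7% of the summed FPKM in treated and 74.1% in PBS T cells, but 12.9% in treated and 4.58% in PBS DCs.

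**Figure D3:**
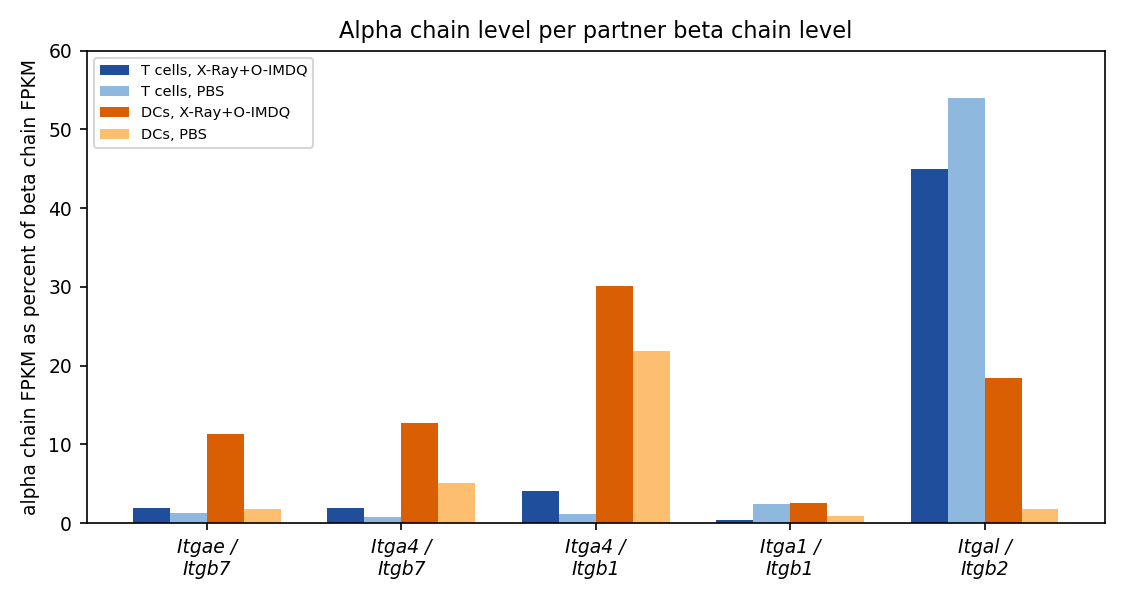
FPKM of an alpha chain as a percent of the FPKM of a beta chain it pairs with, in the 4 libraries, 1 library per bar and no error bars. The Itgal bars of T cells, at 44.9% and 54.1% of Itgb2, stand above all other pairs, and in DCs each alpha chain had a larger share in the treated library.

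The T cell and DC libraries of the same treatment were then compared. In the PBS libraries, 6 of 9 members were called higher in T cells than in DCs (Cd69, S1pr1, Klf2, Itga1, Itgal and Itgb1) and 1 was called lower (Itga4), beside 34.8% of 11364 genes called higher and 25.6% lower. In the treated libraries, 3 members were called higher in T cells (Cd69, S1pr1 and Itgal) and 4 lower (Klf2, Itgae, Itga1 and Itga4), beside 43.4% of 10606 genes higher and 31.1% lower. Between cell types the scaling matters: TMM moved every log2 ratio by -0.65 in the treated and by -0.53 in the PBS libraries, relative to total-count CPM. Between PBS T cells and PBS DCs, 57.6% of the called genes were higher with TMM and 69.6% with total-count CPM.

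Itgal was 3.70-fold higher in treated T cells than in treated DCs, with an interval from 3.51-fold to 3.90-fold, and 17.6-fold higher in PBS T cells than in PBS DCs. Cd69 was 4.47-fold higher in treated T cells and 2.16-fold higher in PBS T cells than in the matching DCs. Relative to the median of all genes, Cd69 was under 2-fold between the PBS libraries, at a log2 ratio of 0.94. With 0 set to the floor of 3 counts, S1pr1 was 427-fold higher in treated T cells than in treated DCs. The nearer limit of its interval was 347-fold. In PBS T cells S1pr1 was 8.86-fold higher than in PBS DCs. Klf2 had a log2 ratio of -1.76 between treated T cells and treated DCs, and one of 2.21 between PBS T cells and PBS DCs. The sign of Itga1 turned in the same way, at -2.81 in the treated and 3.55 in the PBS libraries. Itga4 was called lower in T cells in both, with log2 ratios of -3.00 in the treated and -2.14 in the PBS libraries. These comparisons use the same libraries as the comparisons of treatment.

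**Figure D4:**
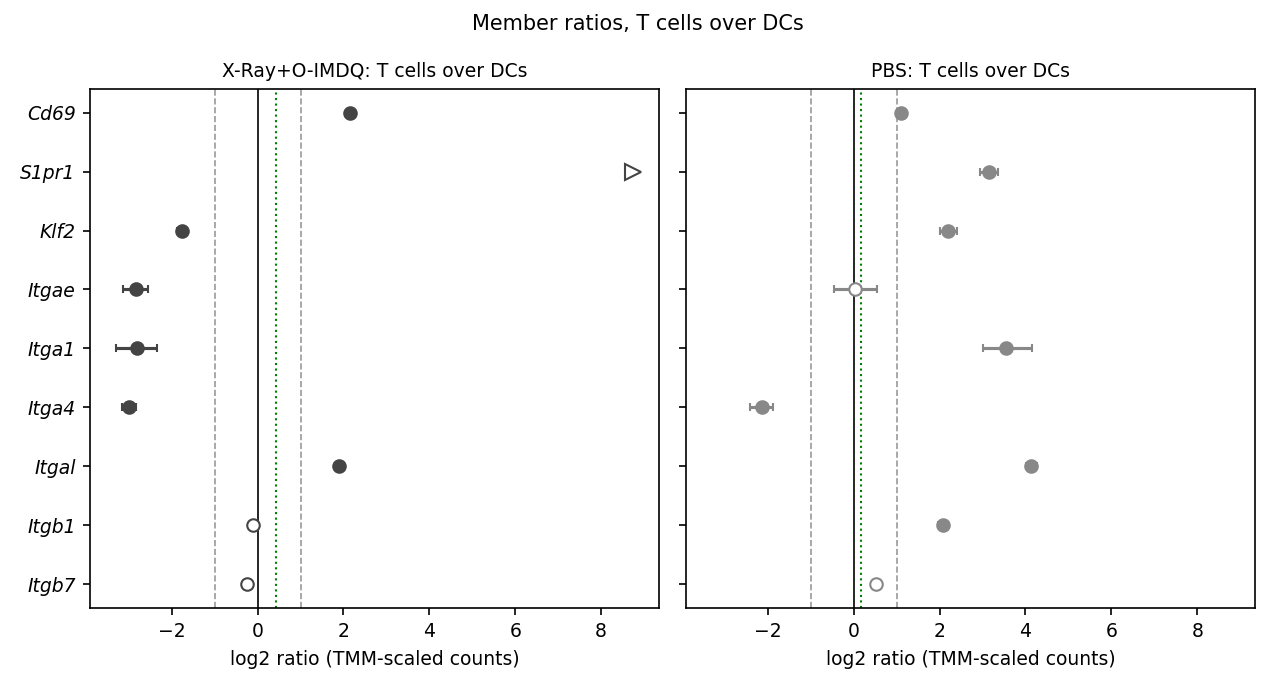
Log2 ratio of T cells over DCs for each member, in the treated libraries on the left and in the PBS libraries on the right, with exact conditional binomial 95% intervals. Filled points are called, the open triangle is S1pr1 at its bound, and the dotted line is the median of all genes. Klf2 and Itga1 lay below 0 in the treated libraries and above 0 in the PBS libraries.

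Related genes were read from 8 lists. Their counts are to be read beside the shares of all genes called. These were 18.3% higher and 25.4% lower in T cells, and 30.2% higher and 41.8% lower in DCs. In T cells, 14 of 15 integrin activation genes were measured, with 2 higher, 3 lower and 9 neither and a median log2 ratio of -0.12. The 2 higher ones were Fermt3, which encodes kindlin-3 and had 62.7 FPKM in treated and 25.4 FPKM in PBS T cells, and Tln1, which encodes talin and had 25.8 FPKM in treated and 11.9 FPKM in PBS T cells. Both proteins bind beta chain tails and switch integrins on, and their log2 ratios were 1.27 and 1.08. The 3 lower ones were Apbb1ip, Cyth1 and Vcl. Apbb1ip had 436 counts in treated and 933 counts in PBS T cells, Cyth1 had 319 and 862, and Vcl had 0 and 50. Skap1, an adaptor of T cell adhesion, had 178 FPKM in treated and 103 FPKM in PBS T cells and was not called.

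Of 10 other alpha chains measured in T cells, 2 were called higher and 6 lower, and the list's median log2 ratio was -2.45. Itga6, a laminin-binding chain, had 395 counts in treated and 67 counts in PBS T cells, and Itgam, a myeloid chain, had 28 counts in treated and 172 counts in PBS T cells. Itgax had 901 counts in treated and 481 counts in PBS T cells and was not called. Of 7 macrophage markers, 3 were called lower and 4 neither. The lower ones were Adgre1, with 0 counts in treated and 334 counts in PBS T cells, Csf1r, with 13 and 28, and Mrc1, with 192 and 390. Among the others, C1qb had 581 counts in treated and 445 counts in PBS T cells, and C1qc had 740 and 571. All 7 macrophage markers summed to 155 CPM in treated and 182 CPM in PBS T cells. Their part in the alpha chain values was not tested. Of 7 integrin ligands measured, 1 was called higher and 4 lower at a median of -1.33, and Vcam1, the ligand of alpha4 integrins, had 14 counts in treated and 432 counts in PBS T cells. Col1a1, a collagen chain made by fibroblasts, had 39 counts in treated and 450 counts in PBS T cells. Of the 3 fibroblast and endothelial markers measured, Col1a2 was lower too. Dcn, with 1380 counts in treated and 1044 counts in PBS T cells, and Pecam1, with 668 and 448, were neither. The part of such cells in the Col1a1 value was not tested. None of the 4 other beta chains measured was called.

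The homing and egress list had 1 gene higher, 1 lower and 7 neither of 9 in T cells, with a median of 0.46. Ccr7, the receptor that leads cells to lymph nodes, had 723 FPKM in treated and 453 FPKM in PBS T cells and a log2 ratio of 0.65. Tcf7, a factor of memory T cells, was higher at 1.34, and Foxo1, which drives Klf2 in T cells, was lower at -1.70. Of 6 genes of the S1P list measured, 2 were higher, 2 lower and 2 neither. S1pr4, the other abundant S1P receptor gene of these T cells, had 63.1 FPKM in treated and 52.7 FPKM in PBS T cells and was not called.

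The tissue residency list had 3 genes higher, 2 lower and 11 neither of 16 measured in T cells, with a median of 0.18. Prdm1, which encodes BLIMP-1, was higher, with 1067 counts in treated and 388 counts in PBS T cells, and Zfp683, which encodes its relative HOBIT, was lower, with 20 counts in treated and 184 counts in PBS T cells. Both factors are known to hold the residency programme in mouse T cells. Cxcr6, a chemokine receptor of resident T cells, had 887 FPKM in treated and 708 FPKM in PBS T cells, and Runx3 and Tgfbr2 had log2 ratios of -0.53 and 0.71, none of which was called. Called genes of the list went in both directions, beside 18.3% of all genes called higher and 25.4% lower in T cells.

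In DCs the tissue residency list had 9 genes higher, 4 lower and 3 neither of 16 measured, with a median of 1.21. Tgfbr2, a receptor chain for TGF-beta, which is known to raise Itgae in T cells, had 6.48 FPKM in treated and 0.60 FPKM in PBS DCs, and Prdm1 had 2 counts in treated and 630 counts in PBS DCs. Among the integrin ligands, Cdh1, which encodes the CD103 ligand E-cadherin, had 12.1 FPKM in treated and 6.08 FPKM in PBS DCs and was called higher at a log2 ratio of 1.05. Icam1, the ligand of LFA-1, had 0 counts in treated and 963 counts in PBS DCs. The share of zeros in the treated DC library was taken only for genes of 100 to 400 counts in PBS DCs. The part of such zeros in the Icam1 value and in the low Prdm1 value was not tested. In the homing list no gene was higher, 3 were lower and 3 neither of 6 measured, and Ccr7 was lower at a log2 ratio of -1.77.

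The other lists of DCs were mixed. Other alpha chains had 3 genes higher and 4 lower of 10 measured, with Itgax, the CD11c chain of DCs, at 52.5 FPKM in treated and 34.8 FPKM in PBS DCs. Other beta chains had 1 higher and 2 lower of 4, and integrin ligands 2 higher and 4 lower of 9. Integrin activation genes had 2 higher and 4 lower of 13, with Fermt3 lower at a log2 ratio of -1.24. The S1P list had 4 higher and 3 lower of 8 and a median of 1.47, and Sgpp1, an S1P phosphatase, had 8.90 FPKM in treated and 0.997 FPKM in PBS DCs. Tln1, Vcam1, Klf3 and Klf6 were called neither way, with log2 ratios of 0.79, 0.69, 0.09 and -0.44. Runx3, a factor that drives Itgae in T cells, was called higher at 1.25, and Itgam, a myeloid alpha chain, at 1.21, while Foxo1 was lower at -1.32. S1pr4, Zfp683 and Cxcr6 had 0 counts in both DC libraries. S1pr5, an egress receptor of NK cells, had 0 counts in treated and 20 counts in PBS DCs, and 10 counts in treated and 0 counts in PBS T cells.

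**Figure D5:**
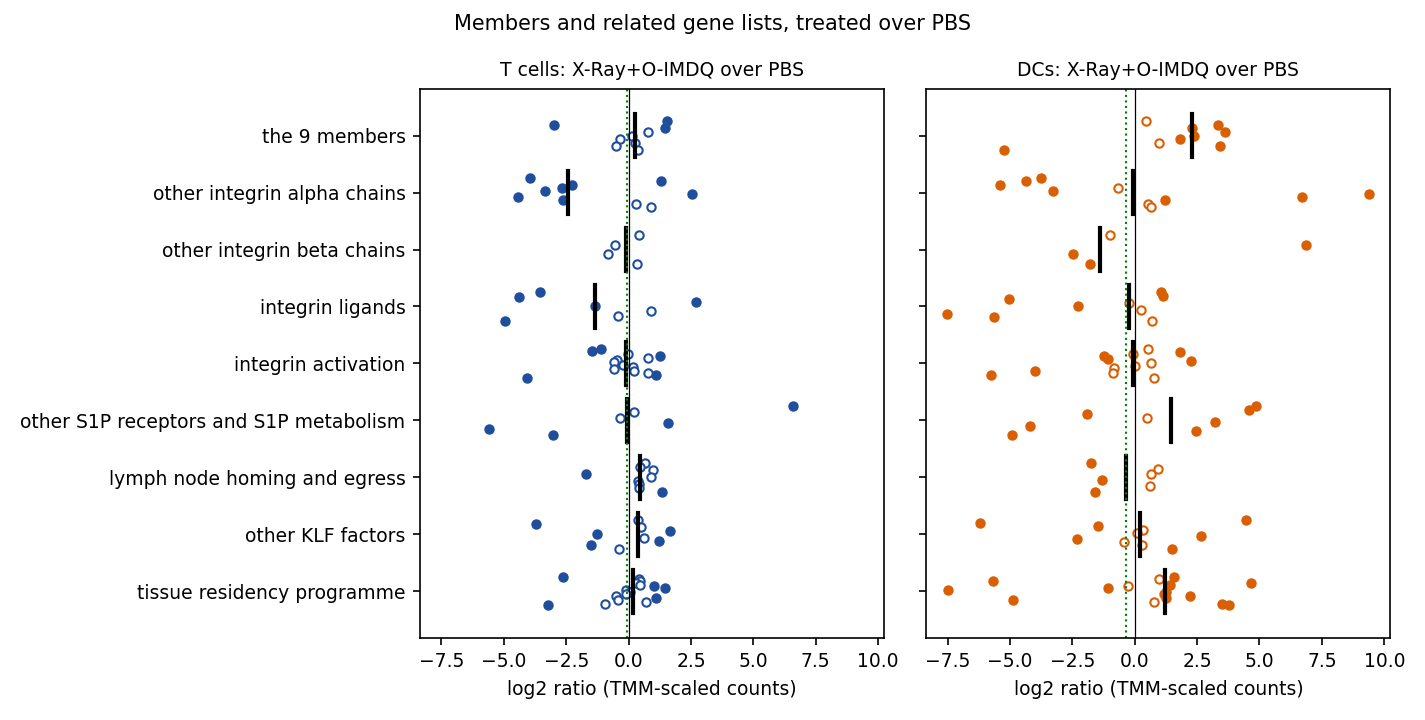
Log2 ratio of treated over PBS for the 9 members and for the measured genes of 8 related lists, in T cells on the left and in DCs on the right. Filled points are called, black bars are list medians and the dotted line is the median of all genes. The members had a median of 0.24 in T cells and 2.29 in DCs.

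The genes nearest to each member in pattern were found by the Euclidean distance over the 4 libraries of centred log2(CPM + 1) values, among 10352 genes. S1pr1 was nearest to the chemokine receptor gene Cxcr3, at a distance of 0.21, and to Rhof. Cxcr3 had 157.8 CPM in treated and 97.0 CPM in PBS T cells, and 0 CPM in treated and 8.91 CPM in PBS DCs. Klf2 was nearest to Gxylt1 at 0.032 and Trappc10, Cd69 to Polg2 at 0.15 and Ccdc63, Itgb7 to Cflar at 0.11 and Irf8, and Itgb1 to Elf1 at 0.16 and Trp53rka. Itgae was nearest to Efcab11 at 0.073 and Myo5a, Itga1 to Eaf1 at 0.26 and Atf5, Itga4 to Spopl at 0.34 and Slc45a4, and Itgal to Lyst at 0.22 and Triobp. With 4 libraries such nearness is a description only.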

How the data were processed

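The authors' deposited tables give, for each gene and library, a raw read count in whole numbers. The deposited FPKM values are the authors' own. Recomputing them from count, listed length and column total left a relative difference of at most 2.04e-07. Per the submitters' processing notes, build GRCm39 was used with R 3.3.1, DESeq2 1.24.0, HISAT2 2.0.4 and RSEM 1.2.12, with no role stated for any of them. A library column was assigned to a sample when the read file name in the sample's description held the column's name. The titles carry other numbers, and the description was followed. Each table holds 1 further library that matches no sample, and these 4 columns were not used here. Their names share the letter C of the PBS columns. Whether they are further PBS libraries, or those that the PBS titles mean, is not stated.

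Counts of the libraries compared were scaled with TMM (edgeR 4.0.16, R 4.3.3), and log2 ratios were given exact conditional binomial (Clopper-Pearson) 95% intervals (scipy 1.17.1). A library at 0 was set to a floor of 3 counts, which is 0.162 CPM in treated T cells, 0.161 CPM in PBS T cells, 0.213 CPM in treated DCs and 0.126 CPM in PBS DCs. Alternatives were total-count CPM, DESeq2 1.42.0 size factors, upper-quartile scaling, TMM without ribosomal, mitochondrial and receptor genes, other count minimums and fold thresholds, log2(CPM + 1), and scaling to CD3 chain counts. Centring on the median of all genes or of genes of like length was chosen after seeing the data. The method was tested on simulated data with counting error only.

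The members, 97 genes in 8 related lists and 49 markers were chosen with earlier results of these data known. Genes of the lists were named by a rule: the 3 with the most counts, the 2 furthest called in each direction, and 20 fixed partners, of which those beside a result on the members are given. The rest of the genes it takes, a fixed partner among them, were left out of the text. Promoters are from RefSeq on GRCm38.p6, and no coordinates were converted between builds.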

Additional observations from a re-analysis of the deposited data

Results flagged for a closer look

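In 4 of the 9 members the ratio of treated over PBS had opposite signs in T cells and in DCs, with intervals that excluded 0 in both. The difference between the cell types was not tested, since there is 1 library per group. Itga1 had a log2 ratio of -2.98 in T cells and 3.34 in DCs, and was called in both. S1pr1 had 0.38 in T cells and -5.24 in DCs, where it was set to the floor of 3 counts. Klf2 had -0.50 in T cells and 3.43 in DCs, and Itgb1 had -0.34 in T cells and 1.83 in DCs. S1pr1, Klf2 and Itgb1 were called in DCs and not in T cells. Among 9388 genes measured in both cell types, 42.9% had opposite signs by the same measure, beside 44.4% of the members.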

How the results depend on the processing

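No paired analysis was possible because each group holds 1 library, which also leaves no library to leave out. Of 96 recomputed counts of called members, 94 stayed within 1.5 times. The exceptions were the members called lower in DCs, 0 when each library had to hold 20 counts, which drops S1pr1, and those called higher in T cells, 0 at a 4-fold threshold, since Itga4 and Cd69 lie between 2-fold and 4-fold. Of 438 recomputed ratios of members, 414 kept direction and call, 9 passed the threshold anew, 8 dropped under it and 7 changed sign, all of genes that were not called. Itgae between PBS T cells and PBS DCs changed to -0.013 with DESeq2 size factors, -0.14 after centring on all genes and -0.18 after centring on genes of like length. Between treated T cells and treated DCs, total-count CPM and log2(CPM + 1) gave 0.54 and 0.53 for Itgb1, and 0.41 and 0.40 for Itgb7. Scaling to CD3 chain counts in T cells made 52.6% of all called genes higher, in place of 41.9%, and log2(CPM + 1) made 70.3% higher between PBS T cells and PBS DCs. With 20 counts asked of each library, 1378 genes were called lower in T cells in place of 2805, 1825 lower in DCs in place of 4317, 2108 higher in PBS T cells than in PBS DCs in place of 3949, and 1814 higher in treated T cells than in treated DCs in place of 4599. At 4-fold, 1003 in place of 2025 were higher and 1774 in place of 2805 lower in T cells, 1922 in place of 3112 were higher in DCs, and 1750 in place of 2906 were lower in PBS T cells than in PBS DCs. Low counts widen the intervals of S1pr1, with 0 counts in treated DCs, of Itga1, with 49 in treated T cells and 29 in PBS DCs, and of Itgae, with 73 in PBS T cells and 63 in PBS DCs.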

Other observations

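KLF2 belongs to a family of zinc-finger factors, and 13 other KLF genes were read beside it. In T cells, 2 of 9 measured were higher, 3 lower and 4 neither, beside 18.3% of all genes higher and 25.4% lower. Klf6 led the family with 415 FPKM in treated and 176 FPKM in PBS T cells and was higher at a log2 ratio of 1.21, while Klf3, a repressor that binds the same boxes, was lower at -1.28. In DCs, 3 of 10 were higher, 3 lower and 4 neither, beside 30.2% of all genes higher and 41.8% lower. Klf10, a TGF-beta-inducible factor, had 3717 counts in treated and 298 counts in PBS DCs, and Klf4, a factor of monocytes and DCs, had 88.7 FPKM in treated and 14.8 FPKM in PBS DCs. The 3 lower ones were Klf11, with 0 counts in treated and 387 counts in PBS DCs, Klf13, with 399 and 1949, and Klf5, with 0 and 26.

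S1pr2, which encodes a receptor that is known to hold cells back from S1P, had 291 counts in treated and 3 counts in PBS T cells, with a log2 ratio of 6.59 and an interval from 5.03 to 8.87. In DCs it had 83 counts in treated and 5 counts in PBS DCs, with a log2 ratio of 4.87. Sphk1, a kinase that makes S1P, had 0 counts in both treated libraries, against 144 counts in PBS T cells and 97 counts in PBS DCs. Of 3128 genes with 100 to 400 counts in PBS T cells, 324 (10.4%) had 0 counts in treated T cells.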
